A study of Mus musculus with 6 samples.

Results

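The medium-chain (*Acsm*) and bubblegum (*Acsbg*) acyl-CoA synthetases were examined in mature 3T3-L1 adipocytes treated with recombinant murine IL-15 (rmIL-15). Their members are the wells of a fatty acid metabolism PCR array whose gene symbol begins with *Acsm* or *Acsbg*. These are 6 of the 84 genes of the plate, the 4 genes *Acsm2*, *Acsm3*, *Acsm4* and *Acsm5* and the 2 genes *Acsbg1* and *Acsbg2*. 3T3-L1 is a mouse preadipocyte line, here differentiated in culture with insulin, dexamethasone and IBMX and treated from day 14. For 24 hours 3 samples received rmIL-15 at 500 ng/ml and 3 received 0 ng/ml, and each was run on 1 plate with 400 ng of RNA. Each well gives a threshold cycle (Ct), the PCR cycle at which its SYBR green signal crosses a set level, so a lower Ct means more RNA. The titles and the tables' group names define the groups used here, while the activation agent label of every sample states the opposite, so each direction given below depends on the titles. Nothing read here states that samples of a group came from separate cultures, so every p-value rests on sample-to-sample spread that may be purely technical. A culture is a mixture, in which fewer cells that express a gene and less RNA in each of them cannot be told apart.

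Acyl-CoA synthetases activate a free fatty acid with ATP and join it to coenzyme A, the step that every fatty acid must pass before it is oxidized, elongated or stored. The families are divided by the chain length they prefer. The Acsm enzymes lie in the mitochondrial matrix, act on medium-chain fatty acids and are known mainly from liver and kidney. The bubblegum enzymes, named after a *Drosophila* mutant, act on long and very long chains and are known from brain, adrenal gland and testis. In adipocytes most activation is attributed to another family, the long-chain synthetases, chiefly Acsl1.

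Of the 6 genes, 3 were measured in every sample, 1 lay at the limit of detection and 2 were not detected below it. Wells with a Ct above 35, or with none, were treated as below the limit and set to 35. *Acsm3*, *Acsbg1* and *Acsm5* were under Ct 35 in all 6 samples. *Acsm4* was under it in 5 samples. *Acsm2* gave a Ct in all 6 samples, each above 35, and *Acsbg2* gave a single Ct, also above 35. All 5 adipocyte markers of the plate were under Ct 35 in every sample, and *Fabp4*, the adipocyte fatty acid binding protein, had the lowest mean Ct of all genes. Of 4 genes listed as liver markers only *Acsm5* was, and *Fabp1*, the liver fatty acid binding protein, was above it or undetermined in all samples. Both genes listed as muscle and heart markers, *Fabp3* and *Cpt1b*, were under it in all 6 samples, at Ct 31.0 to 31.9 and 30.6 to 31.6, close to *Acsm5*.

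**Figure D1:**
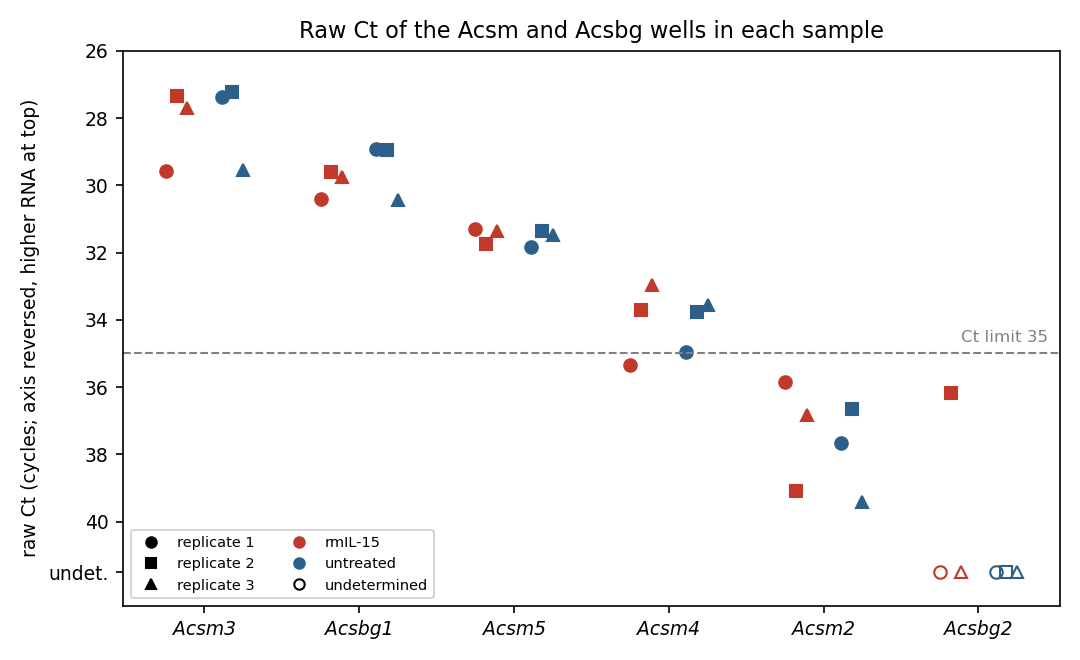
Raw Ct (cycles, axis reversed) of the 6 *Acsm* and *Acsbg* wells in each rmIL-15 (red) and untreated (blue) sample; symbols give the replicate number, the dashed line is the limit of 35 and open symbols are undetermined wells. *Acsm3* samples sit between 27.2 and 29.6, *Acsm5* samples between 31.3 and 31.8, and *Acsm2* and *Acsbg2* have no sample under 35.

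The 4 *Acsm* genes of the plate belong to 1 cluster on chromosome 7. In the RefSeq annotation of GRCm38.p6 the protein-coding genes there follow in the order *Acsm5*, *Acsm2*, *Acsm1*, *Acsm4*, *Thumpd1*, *Ppp1ccb* and *Acsm3*, and *Acsm1* has no well on the plate. Neighbouring genes of the cluster thus differed in detection, with *Acsm5* under the limit in 6 samples and its neighbour *Acsm2* in none. *Acsbg1* is on chromosome 9 and *Acsbg2* on chromosome 17. Promoter windows were matched for 5 of the 6 genes. The windows below, the 250 bases before the RefSeq start site on the gene's own strand, are shown to set the 3 genes measured in all samples beside *Acsm4* at the limit and *Acsm2* above it. Capitals mark a CCAAT box (CCAAT, or ATTGG on the other strand) or a TATA box (TATAAA, or TTTATA on the other strand), both common promoter elements, which were chosen after the windows had been read. The marked motifs do not overlap.
Acsm3, chr7:119760673-119760922, plus strand: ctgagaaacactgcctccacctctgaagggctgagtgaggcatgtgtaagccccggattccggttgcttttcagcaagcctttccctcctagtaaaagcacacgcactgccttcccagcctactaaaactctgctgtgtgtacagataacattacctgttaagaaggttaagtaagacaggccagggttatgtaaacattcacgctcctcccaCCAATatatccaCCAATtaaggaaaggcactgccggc
Acsbg1, chr9:54661886-54662135, minus strand: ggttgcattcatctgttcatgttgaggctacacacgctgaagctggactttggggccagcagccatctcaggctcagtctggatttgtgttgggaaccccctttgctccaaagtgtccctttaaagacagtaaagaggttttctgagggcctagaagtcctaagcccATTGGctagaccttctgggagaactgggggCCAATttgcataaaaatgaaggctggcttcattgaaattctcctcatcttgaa
Acsm5, chr7:119526015-119526264, plus strand: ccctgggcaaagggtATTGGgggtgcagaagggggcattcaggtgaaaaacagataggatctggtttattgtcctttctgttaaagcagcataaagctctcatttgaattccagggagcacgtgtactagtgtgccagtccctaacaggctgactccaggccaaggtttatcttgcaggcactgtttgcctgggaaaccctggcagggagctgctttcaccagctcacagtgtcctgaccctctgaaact
Acsm4, chr7:119689776-119690025, plus strand: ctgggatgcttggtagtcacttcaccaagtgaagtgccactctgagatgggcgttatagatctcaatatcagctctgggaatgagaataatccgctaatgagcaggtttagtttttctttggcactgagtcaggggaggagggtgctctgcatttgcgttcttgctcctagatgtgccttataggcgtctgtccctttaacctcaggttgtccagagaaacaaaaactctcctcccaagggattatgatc
Acsm2, chr7:119554090-119554339, plus strand: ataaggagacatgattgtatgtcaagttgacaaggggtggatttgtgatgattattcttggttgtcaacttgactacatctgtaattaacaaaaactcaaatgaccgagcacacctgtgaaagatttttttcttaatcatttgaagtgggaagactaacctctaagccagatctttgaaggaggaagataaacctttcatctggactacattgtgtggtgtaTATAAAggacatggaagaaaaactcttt

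The letters of a CCAAT box were found in the windows of *Acsm3*, *Acsbg1* and *Acsm5*. *Acsm3* has them in the forward direction 37 and 25 bases before the start site, and *Acsbg1* in either direction 83 and 53 bases before it. *Acsm5* has them once, in the reverse direction, 235 bases before the start site. *Acsm4* and *Acsm2* have none, and the same holds for a further window of *Acsm2*. The letters were chosen with these windows in view, so whether they go with detection was not tested. *Acsm2* has a TATA box 28 bases before the start site in the window shown and none in the further window. Of 32851 mouse promoter windows of this length, 33.8% hold a CCAAT box and 12.4% a TATA box, so that matches in 3 of 5 genes are a description of these letters and not of a bound site.

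*Acsm3*, known from the rat SA gene that was first studied in hypertension, had the lowest Ct of the group and the largest spread in raw Ct. Its raw Ct with rmIL-15 was 29.6, 27.3 and 27.7 in replicates 1, 2 and 3. In untreated adipocytes it was 27.4, 27.2 and 29.5. The late samples, rmIL-15 replicate 1 and untreated replicate 3, are thus in different groups, and the other 4 samples lie within 27.2 to 27.7. The well annotated *Gapdh* was then subtracted and the sign turned, so that a higher value is more RNA. The methods name GAPDH as the reference, but the authors' normalized values subtract the well annotated *B2m*, so it is not settled that the *Gapdh* well is the one they meant. On this *Gapdh* scale *Acsm3* was at -2.78 ± 1.03 (SD, n = 3) with rmIL-15 and at -2.59 ± 0.85 (SD, n = 3) without. The log2 fold change was -0.19 (95% interval -1.79 to 1.41, adjusted p = 0.95 by limma). Its sign turned to 0.40 without rmIL-15 replicate 1, to 0.04 without untreated replicate 1 and to 0.07 without untreated replicate 2.

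The spread of *Acsm3* between samples of a group was 1.25 cycles in raw Ct (pooled SD of the 2 groups) and ranked 2 of the 69 genes under the limit in all samples, where the median was 0.366 cycles. On the *Gapdh* scale it was 0.943 cycles and again ranked 2, against a median of 0.218, while *Acsm4*, which is not among the 69 genes, had 1.01. *Acsm5*, of the same family and at higher Ct, had a raw spread of only 0.245 cycles, which ranked 57. The plates of rmIL-15 replicate 1 and untreated replicate 3 also ran late for most genes, with a median deviation from the gene's mean of 0.247 and 0.384 cycles. *Acsm3* deviated by 1.46 and 1.40 cycles on these plates. The positive PCR control lay at 19.2 and 19.2 there and at 19.2 to 19.3 on the others, and the reverse transcription control at 22.8 and 22.5 against 22.0 to 22.5. The part of the plates in the spread of *Acsm3* was not tested.

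**Figure D2:**
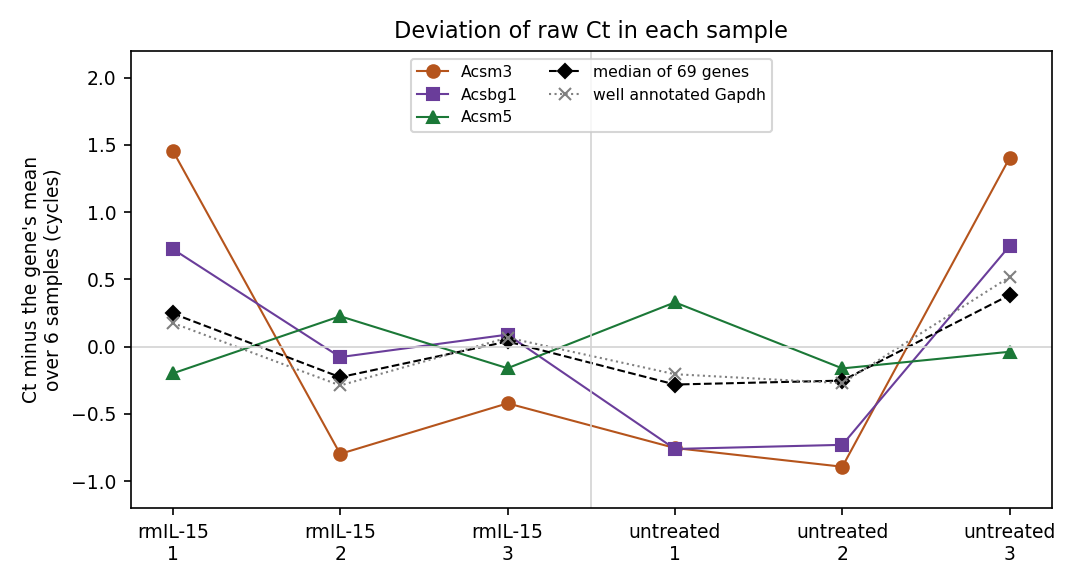
Raw Ct minus the gene's mean over the 6 samples (cycles) for *Acsm3*, *Acsbg1*, *Acsm5*, the well annotated *Gapdh* and the median of the 69 genes under Ct 35 in all samples; lines only join the points of a gene. *Acsm3* deviates by 1.46 and 1.40 cycles in rmIL-15 replicate 1 and untreated replicate 3, against 0.247 and 0.384 for the median gene, while *Acsm5* does not follow them.

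**Figure D3:**
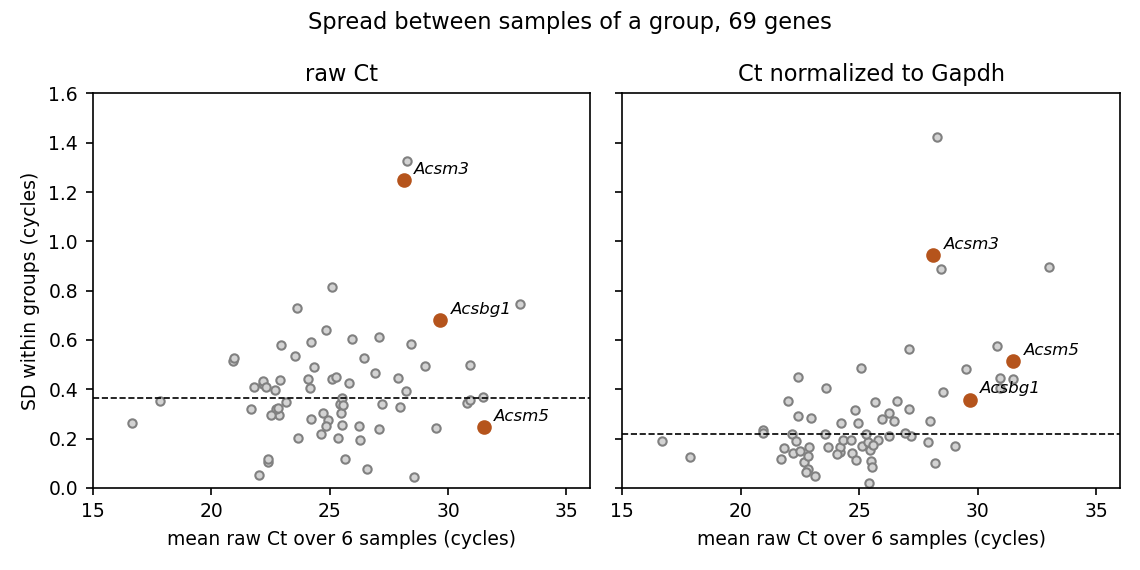
Pooled SD within the 2 groups (cycles, y axis) against mean raw Ct (cycles, x axis) for 69 genes, for raw Ct (left) and Ct normalized to the well annotated *Gapdh* (right); the dashed line is the median. *Acsm3* is at 1.25 and 0.943 cycles, and *Acsm5* moves from 0.245 cycles, under the median, to 0.515, above it.

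*Acsm5* had the steadiest raw values of the 3 genes measured throughout. With rmIL-15 its Ct was 31.3, 31.7 and 31.3, and without it was 31.8, 31.3 and 31.5. The groups overlapped and their raw means differed by -0.088 cycles (exact permutation test, two-sided, p = 0.6). Subtracting *Gapdh*, whose Ct ran from 25.2 to 25.97 over the plates, raised the spread of *Acsm5* to 0.515 cycles, rank 7 of 69. On that scale it was at -6.03 ± 0.48 (SD, n = 3) with rmIL-15 and at -6.09 ± 0.55 (SD, n = 3) without. The log2 fold change was 0.06 (95% interval -0.84 to 0.95, adjusted p = 0.96 by limma), and it was negative without rmIL-15 replicate 1 (-0.11), rmIL-15 replicate 3 (-0.04) or untreated replicate 1 (-0.19). With *Hsp90ab1* as reference, which moves every gene by -0.35, it was -0.29. The sign of *Acsm5* thus depended on single samples.

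*Acsm4*, called O-MACS after its discovery in rat olfactory epithelium, was close to the limit. Its raw Ct was 35.4, 33.7 and 32.96 with rmIL-15 and 34.9, 33.8 and 33.6 without, so that replicate 1 was the latest in each group. The wells on either side of the limit, 34.9 in untreated replicate 1 and 35.4 in rmIL-15 replicate 1, differ by less than the SD of either group. With the latter set to 35, the log2 fold change was 0.18 (95% interval -1.54 to 1.90, adjusted p = 0.95 by limma), and it was -0.32 without rmIL-15 replicate 3, -0.35 without untreated replicate 1. The *Hsp90ab1* reference, with its shift of every gene, gave -0.17. *Acsm4* entered the test through the untreated group only. At such Ct values levels are only approximate.

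The wells above the limit have no level to compare. *Acsm2*, a medium-chain synthetase of kidney and liver, was at 35.8, 39.1 and 36.8 with rmIL-15 and at 37.6, 36.6 and 39.4 without. The control well for genomic DNA lay in a similar range, 36.6 to 39.8 on 5 plates, and was undetermined on that of rmIL-15 replicate 2. Its part in the *Acsm2* signal was not tested. *Acsbg2*, the bubblegum synthetase of testis and brainstem, gave a Ct of 36.2 in rmIL-15 replicate 2 and was undetermined in the other 5 samples. Both genes were below the limit in either group, so that a difference was not detectable for them.

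*Acsbg1*, the bubblegum synthetase first known from brain, had the largest log2 fold change of the 4 genes tested, and it did not pass the test. Its raw Ct was 30.4, 29.6 and 29.8 with rmIL-15. Without it was 28.9, 28.9 and 30.4. Untreated replicates 1 and 2 were earlier than every treated sample, whereas untreated replicate 3 was as late as the latest of them. On the *Gapdh* scale the samples were at -4.78, -4.44 and -4.25 with rmIL-15 and at -3.67, -3.77 and -4.46 without. The overlap of the groups therefore rests on 1 sample, untreated replicate 3. Means were -4.49 ± 0.27 (SD, n = 3) and -3.97 ± 0.43 (SD, n = 3), a ratio of 0.697 to the untreated level if each cycle doubles the product. The log2 fold change of -0.52 (95% interval -1.17 to 0.12) had an adjusted p = 0.58 by limma, and the exact permutation test, two-sided, gave p = 0.3, where 0.1 is the smallest p for 3 samples against 3. Without untreated replicate 3 the fold change was -0.77, past an unadjusted p under 0.05 and with an adjusted p = 0.25 by limma. It was between -0.77 and -0.37 when any 1 sample was left out and -0.42 to -0.87 with other references, and no setting passed an adjusted p under 0.05.

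At an unadjusted p under 0.05 none of the 4 tested *Acsm* and *Acsbg* genes differed between rmIL-15 and untreated adipocytes by limma, against 9.46% of all 74 genes tested (7 genes, or 3 with the well annotated *B2m* as reference). At an adjusted p under 0.05 limma called none of the 4 genes and 0% of the plate. In none of the 4 did the groups fail to overlap, against 17.6% of the plate (13 genes). Of the 4 genes 2 were higher and 2 lower in sign, with a median log2 fold change of -0.07. Over the 74 genes the median was -0.11, with 21 higher and 53 lower. With 4 genes, shares of 0 do not set the group apart from this background.

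**Figure D4:**
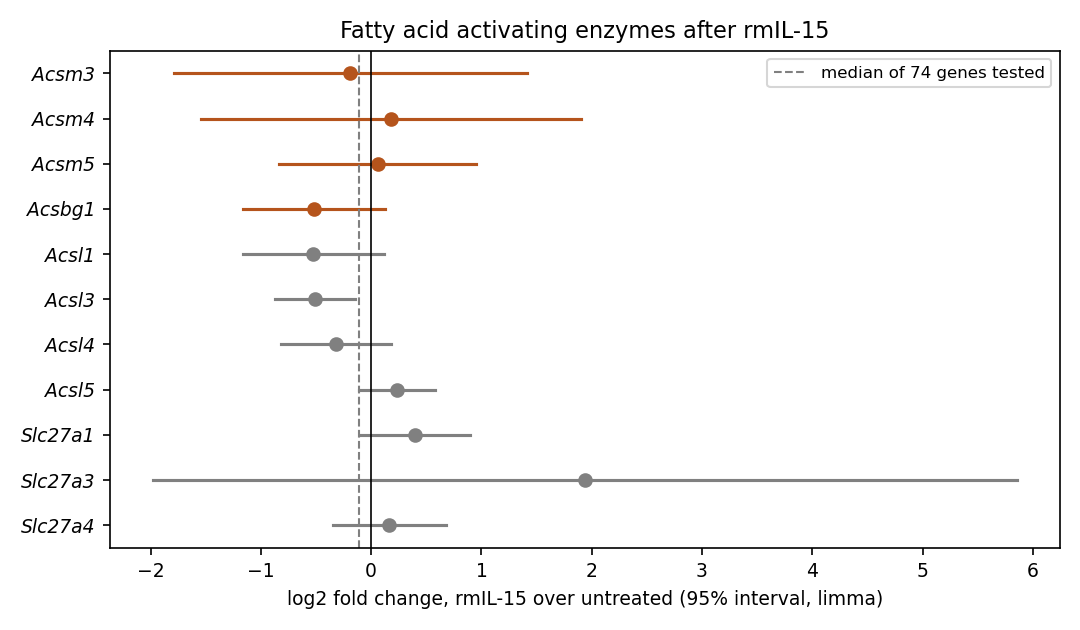
Log2 fold change of rmIL-15 over untreated with the 95% interval from limma, for the tested *Acsm* and *Acsbg* genes (brown) and the tested *Acsl* and *Slc27a* genes (grey); the dashed line is the median of 74 genes. All 4 brown intervals include 0, and *Acsm3* and *Acsm4* have intervals of more than 1.4 on both sides of it.

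Differences between wells of 1 plate need no reference gene. For each of the 3 pairs of genes measured in all samples, the Ct difference on the plate was compared between the groups. *Acsbg1* minus *Acsm5* was -0.91, -2.14 and -1.58 cycles with rmIL-15 and -2.92, -2.40 and -1.04 without. The groups overlapped and differed by 0.580 cycles (95% interval -1.26 to 2.42). *Acsbg1* minus *Acsm3* differed between the groups by 0.332 cycles (95% interval -1.10 to 1.77), and *Acsm3* minus *Acsm5* by 0.248 cycles (95% interval -2.87 to 3.36). The exact permutation tests, two-sided, gave p = 0.4, 0.6 and 0.7, each p = 0.7 after adjustment over the 3 pairs. Thus a different response of the members was not detectable, with intervals that include differences of more than 1 cycle. *Acsm3* minus *Acsm5* was itself far from constant, at -1.72 in rmIL-15 replicate 1 and -1.94 in untreated replicate 3 against -3.64 to -4.46 in the other 4 samples.

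In the order of raw Ct, *Acsm3* ranked 57 of the 84 genes in untreated adipocytes, *Acsbg1* 62, *Acsm5* 69 and *Acsm4* 72. Mean untreated Ct was 28.1 ± 1.29, 29.4 ± 0.863, 31.6 ± 0.255 and 34.1 ± 0.745 (SD, n = 3). The neighbours *Acsm3* and *Acsbg1* overlapped between samples, while *Acsbg1* and *Acsm5*, and *Acsm5* and *Acsm4*, did not. Within a plate *Acsbg1* was later than *Acsm3* on all 6, by 0.814 to 2.26 cycles. *Acsl1* was at 21.8 ± 0.0555 (SD, n = 3). *Acsm3* lay 6.29 ± 1.31 cycles above *Acsl1* on the same plate, *Acsbg1* 7.67 ± 0.888 cycles, *Acsm5* 9.79 ± 0.201 cycles and *Acsm4* 12.3 ± 0.692 cycles (SD, n = 3). Between genes, Ct also depends on the length of the product and the efficiency of the primers, which no source used here gives, so these differences were not turned into ratios. With rmIL-15 the ranks were 56, 64, 68 and 72, and the order was the same.

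The other families that activate fatty acids on the plate are the long-chain synthetases (*Acsl*) and the fatty acid transport proteins (*Slc27a*), which also have synthetase activity. Of 5 *Acsl* genes 4 were tested, 1 higher and 3 lower in sign, with a median log2 fold change of -0.41, and 1 of them, *Acsl3*, named after its values were seen, was lower at an unadjusted p under 0.05 (-0.51, adjusted p = 0.47 by limma). *Acsl1*, with the lowest Ct of the family, was at -0.52 (standard error 0.26, adjusted p = 0.58 by limma), next to the value of *Acsbg1*, and *Acsl5*, with the highest of those tested, was at 0.23. *Acsl6* resembled *Acsbg2*, with a Ct in 1 sample only, above the limit. Of 6 *Slc27a* genes 3 were tested, and all 3 were higher in sign, with *Slc27a1* at 0.39. *Slc27a3*, at 1.94, was undetermined in 1 untreated sample and entered the test only through the rmIL-15 group, so its sign is no support for a direction. Of all 74 genes tested, 53 were lower in sign and 21 higher. Whether these families differ from that background or from the *Acsm* and *Acsbg* genes was not tested.

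Enzymes that use acyl-CoA were counted in lists, which were not compared by a test. A list of 8 genes drawn up for medium-chain acyl-CoA also holds enzymes of other chain lengths, among them *Acads*, *Crat* and *Acot12*. Its counts and median therefore do not describe medium-chain enzymes alone. Of the 8, 5 were lower and 3 higher in sign, with a median of -0.07 on the log2 scale. *Acot12*, one of those higher, was over the limit in every untreated sample and entered through the rmIL-15 group, which fixed its sign. Of the 8, 1 passed an unadjusted p under 0.05 by limma. This was *Acadm*, the medium-chain acyl-CoA dehydrogenase, at -0.40 (adjusted p = 0.47 by limma). *Crot*, carnitine octanoyltransferase, was at -0.03. Of 6 genes on the plate for very long chains and peroxisomal oxidation, 5 were lower and 1 higher, with a median of -0.06, and 1, the peroxisomal oxidase *Acox2*, named after its values were seen, passed an unadjusted p under 0.05 (-0.66, adjusted p = 0.11 by limma). *Acadvl*, the very long-chain acyl-CoA dehydrogenase, was at -0.08. Over the plate 53 of the 74 genes tested were also lower in sign. With *Hsp90ab1* as reference the median of all genes shifted by -0.35 on the log2 scale, and with *Gusb* by 0.10, so these counts of signs are relative to *Gapdh*.

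Across the 6 samples the genes had different companions on the *Gapdh* scale. *Acsm3* was most like *Ppa1*, the cytosolic pyrophosphatase (Pearson r = 0.97 over 6 samples), and *Gyk*, glycerol kinase (r = 0.93). These rest on rmIL-15 replicate 1 and untreated replicate 3, since r was -0.56 and -0.39 over the other 4 samples. *Ppa1* was at 2.10 and 2.28 in those samples and at 2.58 to 2.75 in the others, a smaller gap than that of *Acsm3*. *Acsm5* was most like *Acat1*, the mitochondrial acetoacetyl-CoA thiolase (r = 0.95), and *Ehhadh*, the peroxisomal bifunctional enzyme (r = 0.93), with 0.97 and 0.73 without rmIL-15 replicate 2 and untreated replicate 1. *Acsbg1* was most like *Acaa2*, the mitochondrial thiolase (r = 0.89), and *Acadm* (r = 0.83), with 0.92 and 0.67 without untreated replicates 1 and 2. Among the members, *Acsbg1* and *Acsm3* had r = 0.76, while *Acsm5* had r = -0.76 with *Acsm3* and r = -0.58 with *Acsbg1*. Without the 2 samples farthest from the median of the first gene, these were 0.81 for *Acsbg1* and *Acsm3*, -0.12 for *Acsm3* and *Acsm5* and -0.22 for *Acsbg1* and *Acsm5*. The companions were picked as the highest of 73 values each, and all genes of a sample share its plate and its *Gapdh* value, so these are descriptions of 6 plates.

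**Figure D5:**
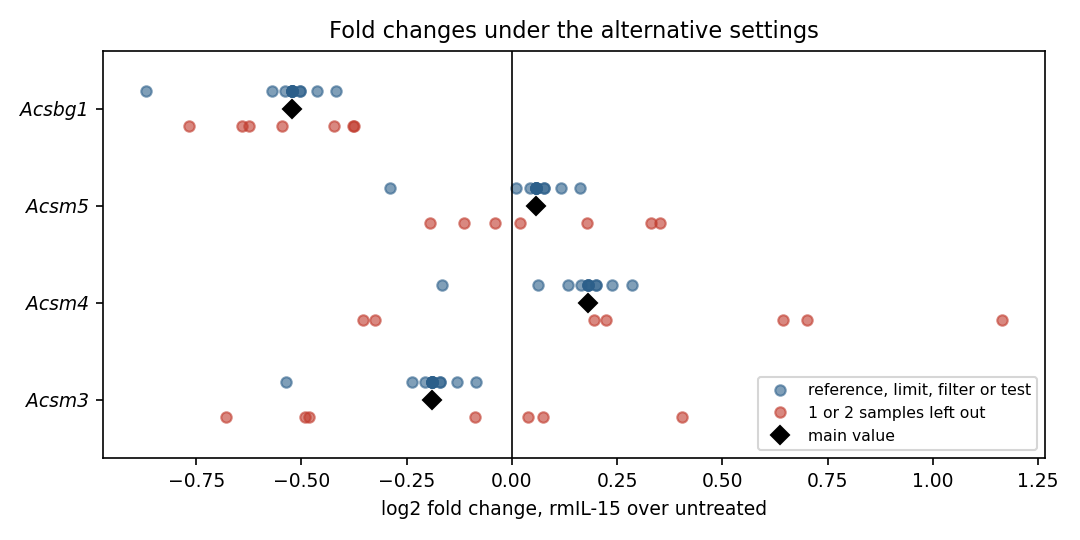
Log2 fold change of rmIL-15 over untreated for the 4 tested genes (black diamonds) and under the alternative settings, which change the reference, limit, filter or test (blue) or leave out 1 or 2 samples (red). *Acsbg1* stays between -0.87 and -0.37, while *Acsm3*, *Acsm4* and *Acsm5* have values on both sides of 0.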

How the data were processed

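RNA from 6 samples of differentiated 3T3-L1 cells, 3 treated with rmIL-15 and 3 untreated, was run on SYBR green plates of 96 wells. The deposited values are raw Ct, not normalized, and normalized Ct differences, a log2 scale on which the authors took Ct, held at 35, minus a reference. The header names the mean of housekeeping genes, but subtracting the *B2m* well alone gives these values to within 3.55e-15 cycles. The authors' fold changes between groups and 6 columns headed as powers of 2 of the differences were not used. Precision is limited by 3 samples a group and 1 well per gene and sample.

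Ct above 35 or undetermined was set to 35, the well annotated *Gapdh* subtracted, since the methods normalize to GAPDH, and the sign turned. Because the authors' values use the *B2m* well, the annotation of the reference wells is in doubt. The 74 of 84 genes with Ct under 35 throughout either group were fitted with limma 3.58.1 in R 4.3.3, with Benjamini-Hochberg adjustment over all 74. The fit was also run on simulated data with known changes and independent noise for each gene. Shifts shared by the genes of a plate were not simulated. Exact permutation tests, intervals of Ct differences (t distribution, equal variance) and figures were made in Python 3.11.15 with scipy 1.17.1 and matplotlib 3.10.9. Alternatives were other references or plate medians, the authors' values, Ct limits of 33 and 38, other filters, robust limma, the methods' t-test, a replicate block and fits without single samples. Over the 74 genes, samples of equal number did not deviate together (correlations of -0.267, 0.0916 and -0.275), so numbers were not used as pairs. The samples of *Acsm4* did fall in the same order of number in each group, and its value with the replicate block is given below.

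The rule for named genes took all *Acsm* and *Acsbg* wells, of the *Acsl* and *Slc27a* families the genes with the lowest and highest mean Ct, *Acadm*, *Crot* and *Acadvl* from lists of related enzymes, with a further gene that is not reported here, and the 2 genes most correlated with each member under Ct 35 in all samples. Members and lists were chosen with earlier results of these data known. RefSeq identifiers of all 6 wells matched GRCm38.p6 under the same symbol, and promoter windows are from RefSeq.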

Additional observations from a re-analysis of the deposited data

How the results depend on the processing

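The count of genes past an unadjusted p under 0.05 by limma, 7 of 74, was 3 with *B2m* as reference or the authors' normalized values and 2 with *Hsp90ab1*. It was 4 with the replicate block and 4 to 7 when 1 sample was left out, lowest without rmIL-15 replicate 1. Settings that change the genes tested went either way. The count was 9 with a Ct limit of 38, 8 with a limit of 33 and 8 with genes under Ct 35 in all 6 samples. With no filter it was 5. At an adjusted p under 0.05 the count was 0 in every setting. Filters, Ct limits and other tests leave the fold changes of *Acsbg1*, *Acsm3* and *Acsm5* as they are by construction. A reference moves all genes alike and can turn a sign. Fits without single samples reuse the same data, so a sign kept in them is not independent support. Above *Acsl1* on the same plate, *Acsbg1* lay 7.67 ± 0.378 cycles with rmIL-15 and 7.67 ± 0.888 without (SD, n = 3), so its sign is relative to the reference. On the *Gapdh* scale *Acsbg1* kept its sign when any 1 sample was left out (-0.77 to -0.37). Its unadjusted p was under 0.05 in 2 settings, without untreated replicate 3 and, chosen after seeing the data, without it and rmIL-15 replicate 1 together (-0.62, adjusted p = 0.21 by limma). With 1 of the 6 samples left out in turn, *Acsm3* turned its sign in 3 cases (-0.68 to 0.40), *Acsm4* in 2 (-0.35 to 0.70) and *Acsm5* in 3 (-0.19 to 0.35), and the cause was not tested. *Acsm4* was at 1.17 without rmIL-15 replicate 1 and untreated replicate 3 together (adjusted p = 0.57 by limma). These samples hold its lowest treated value, the well set to 35, and its highest untreated value. Leaving them out raises its fold change by construction. With *Hsp90ab1*, which shifts all genes by -0.35, *Acsm4* was at -0.17 and *Acsm5* at -0.29. The difference between *Acsm3* and *Acsm5* on a plate ran from -0.52 to 1.03 cycles when 1 sample was left out, and the other pairs kept their sign. *Acsm4* could not be fitted with a limit of 33 or with genes under 35 in all 6 samples, which remove it. Of 36 wells, the 6 genes in 6 samples, 23 were under Ct 35, 19 under 33 and 29 under 38. The replicate block changed no call on the 4 genes. For *Acsm4* it lowered the standard error from 0.70 to 0.13, with an unadjusted p = 0.25 by limma. A change in *Acsm2* or *Acsbg2* was out of reach at their Ct.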
